A study of Mus musculus with 10 samples.

Results

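The 10 genes described here are markers and receptors of blood vessel endothelium together with the main ligand of the VEGF system: Kdr, Flt1, Vegfa, Tek, Tie1, Pecam1, Cdh5, Vwf, Eng and Esam. They were found by the gene symbol in the array's platform annotation, which gave 15 probe sets among the 22626 probe sets of the array that are not controls, and 10 genes among 12393 with a symbol of their own. Each probe set is a group of short probes that reads 1 stretch of a transcript. Of the 10 genes, 6 had 1 probe set, 3 had 2 (Vegfa, Cdh5 and Eng) and 1 had 3 (Flt1). In all, 14 of the 15 probe sets were bright enough to enter the tests, and the exception was 1 of the 2 probe sets of Cdh5.

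Right ventricles of 10 mice, all of strain 129SV, gave the total RNA, with 1 array per mouse. The trained groups held 4 wildtype mice and 4 mice labelled plakoglobin (+/-), that is, with 1 working allele of the desmosome gene Jup; each had 2 males and 2 females aged 6 months. They swam in water of 35 °C, 6 times a week, for sessions lengthened from 5 to 90 min. The untrained groups held 1 wildtype and 1 plakoglobin (+/-) female, both aged 10 months, so training and age cannot be told apart and an untrained group has no replicate. The series describes its mice as littermate pairs of both genotypes; which mice form a pair was not given in the sources used here, so genotypes were compared unpaired, and replicate numbers follow the order of the records. P-values measure the spread between these mice and arrays.

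Endothelial cells line every vessel and are, by number, among the most abundant cells of the heart. VEGF-A binds 2 receptor tyrosine kinases on them: Kdr (VEGFR2), which carries the growth and permeability signal, and Flt1 (VEGFR1), which binds the ligand tightly, signals weakly and is also made as a soluble decoy. Tek (Tie2) is the receptor of the angiopoietins and Tie1 its partner without a settled ligand of its own, and this pair keeps vessels quiescent. Pecam1, Cdh5 (VE-cadherin) and Esam hold endothelial cells to each other, Eng (endoglin) is a co-receptor for BMP ligands, and Vwf is the clotting protein that endothelium stores and secretes.

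The promoters of the 2 VEGF receptors are shown because the results below turn most on these 2 genes. Each sequence is the RefSeq window of 250 bases before to 50 bases after the start of the transcript (GRCm38.p6), written along the gene. Capitals mark the letters CCGGAA or CAGGAA, found in many sites for ETS factors, and GGGCGG, the GC box, on either strand. The shorter letters GGAA alone were neither marked nor counted.
Kdr (chr5:75978406-75978705, minus strand): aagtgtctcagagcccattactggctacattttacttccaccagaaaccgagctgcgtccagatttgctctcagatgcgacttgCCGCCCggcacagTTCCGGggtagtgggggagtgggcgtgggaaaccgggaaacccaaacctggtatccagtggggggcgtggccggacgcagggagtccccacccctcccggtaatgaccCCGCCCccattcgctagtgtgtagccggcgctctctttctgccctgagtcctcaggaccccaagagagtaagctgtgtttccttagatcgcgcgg
Flt1 (chr5:147725962-147726261, minus strand): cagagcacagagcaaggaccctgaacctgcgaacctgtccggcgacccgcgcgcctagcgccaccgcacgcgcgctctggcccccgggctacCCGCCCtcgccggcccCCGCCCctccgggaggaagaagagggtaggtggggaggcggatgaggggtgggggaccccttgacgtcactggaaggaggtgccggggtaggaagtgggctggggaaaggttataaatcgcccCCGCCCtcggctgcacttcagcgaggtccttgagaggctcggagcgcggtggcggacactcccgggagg
The Kdr window held 1 match to CCGGAA and 2 to GGGCGG, and the Flt1 window held 3 to GGGCGG and none to CCGGAA or CAGGAA. Among all 32851 promoter windows of this length, 14.9% held CCGGAA, 30.6% held CAGGAA and 35.7% held GGGCGG. The 7 windows used for the 10 genes (1 each for Eng, Tek, Tie1, Kdr and Flt1, and 2 for Vegfa) held them in 1, 4 and 4 cases. No window was matched to Cdh5, Pecam1, Vwf or Esam. Separately, windows on 1 chromosome were left out for the 10 genes, a filter not applied to the 32851. A match is a description of the letters and no binding was measured.

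The GAPDH control of the array is read near its 3' and its 5' end, and the 3'/5' ratio, which rises when RNA or its labelled copies are shortened, was above 2 on 3 arrays: 17.8 on trained wildtype replicate 2, 2.98 on trained plakoglobin (+/-) replicate 1 and 2.50 on trained wildtype replicate 1. On the other 7 arrays it lay between 0.849 and 1.02. The actin control did not rank the arrays alike: its 3'/5' ratio was 1.29 on trained wildtype replicate 2, against 0.932 to 1.24 on those 7, while it was 2.65 on the plakoglobin (+/-) array and 3.05 on wildtype replicate 1. The first of these mice is a female and the other 2 are males, and all 3 were trained. Jup itself read 1991.7 to 3519.9 in trained plakoglobin (+/-) mice and 2928.3 to 4322 in trained wildtype mice, ranges that overlap. In the untrained mice it was higher in the plakoglobin (+/-) mouse (3156.9) than in the wildtype mouse (2386.8). Jup signal thus did not separate the genotypes, which are given as labelled. All 7 ventricular myocyte markers and all 9 endothelial genes among the 10 were above the brightness filter by their brightest probe set.

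No gene of the 10 passed the test in any comparison. For training, 0 of the 14 tested probe sets had a limma adjusted p under 0.05, against 0.626% of all 13576 probe sets (85); 1 had an unadjusted p under 0.05, against 8.68%. For genotype among trained mice, 0 passed against 0% of all probe sets, and 1 had an unadjusted p under 0.05 against 2.01%. For sex among trained mice, 0 passed against 0.0516%, and 2 had an unadjusted p under 0.05 against 8.82%. For the genotype by training term, in which each untrained group is 1 mouse assumed to vary like the others, 0 passed against 0%, and none of the 14 had an unadjusted p under 0.05 against 3.2%. By the brightest probe set of each gene, 3 of the 10 fitted training changes were above 0 and 7 below, with a median log2 change of -0.07, while 50.1% of the 8365 tested genes were above 0 with a median of 0.00. The fitted genotype differences, plakoglobin (+/-) minus wildtype, were above 0 in 7 genes and below in 3, with a median of 0.08, against 51.2% of all genes and a median of 0.01.

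In none of the 15 probe sets did the 8 trained mice lie wholly above or below both untrained mice, a separation seen in 9.24% of all tested probe sets. Nor did any separate the 4 trained plakoglobin (+/-) from the 4 trained wildtype mice, which 1.6% of all tested probe sets did. In 7 of the 10 genes both untrained values lay inside the range of the trained mice, and in 3, Kdr, Tie1 and Eng, 1 of the 2 did. In these bulk samples, fewer endothelial cells and less RNA per cell cannot be told apart.

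**Figure D1:**
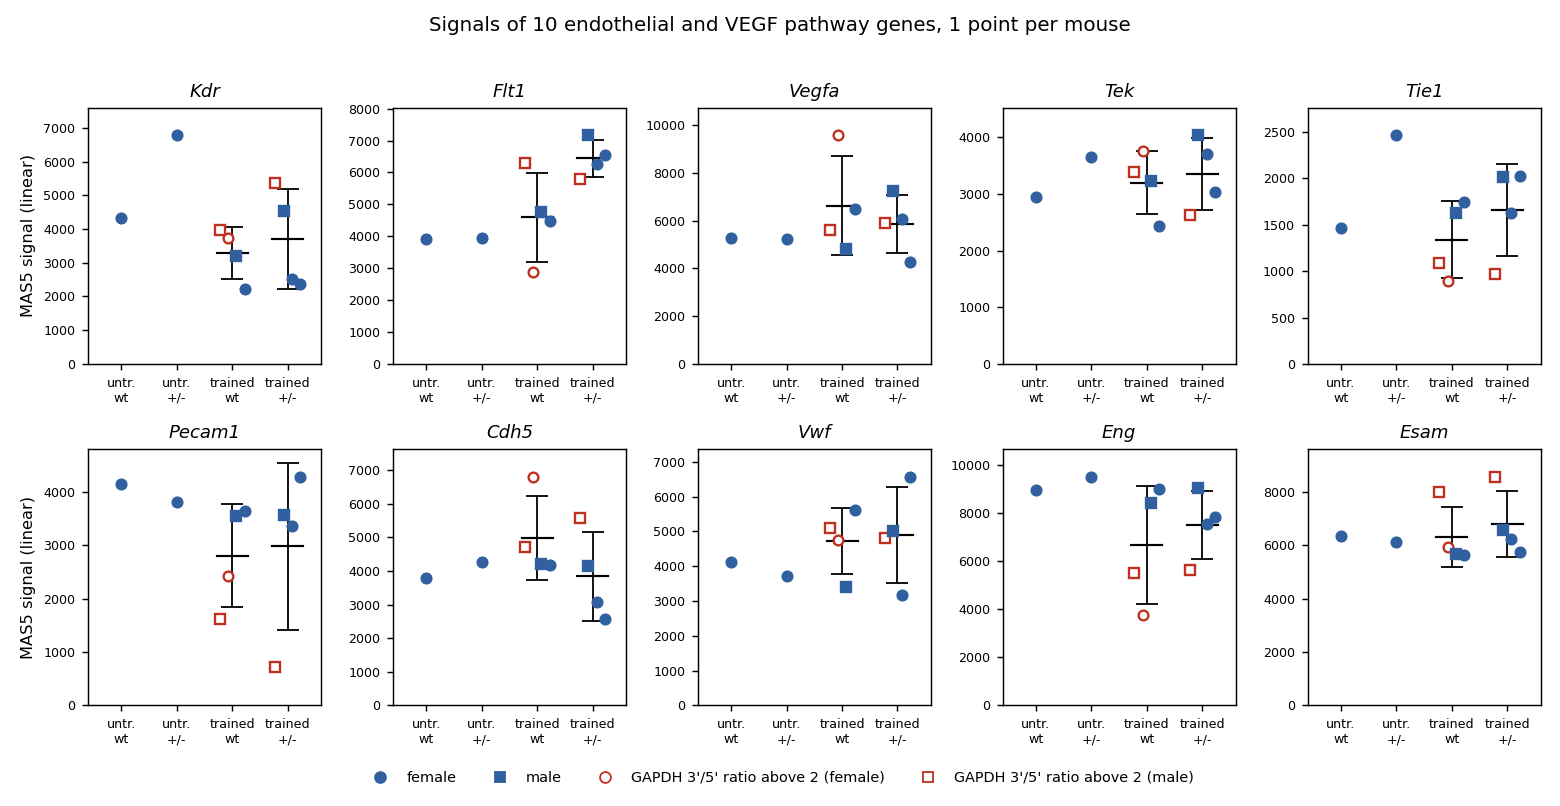
MAS5 signal of each gene's brightest probe set (vertical axis, linear, from 0) in the 4 groups (wt, wildtype; +/-, plakoglobin (+/-); untr., untrained), 1 point per mouse, with bars for the mean and SD of the trained groups (n = 4 each); squares are males, circles females, and open red symbols the 3 arrays with a GAPDH ratio above 2. The untrained points lie within or at the edge of the trained spread in most panels, and Kdr has both untrained females above all 4 trained females.

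Kdr, the main signalling receptor of VEGF-A, had the lowest adjusted p of the 10 genes for training. Its signal was 4313.5 in the untrained wildtype and 6777.8 in the untrained plakoglobin (+/-) female. The trained females read 3718.5 and 2227.3 (wildtype) and 2523.8 and 2358.3 (plakoglobin (+/-)), and the trained males 3969.4 and 3213.4 (wildtype) and 5363.6 and 4545.5 (plakoglobin (+/-)). Both untrained females were thus above all 4 trained females, while 2 trained males exceeded the untrained wildtype female. The groups stood in the order untrained plakoglobin (+/-), untrained wildtype, trained plakoglobin (+/-) (3697.8 ± 1490.6, SD, n = 4) and trained wildtype (3282.2 ± 770.31, SD, n = 4), and the ranges of the last 2 overlapped.

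With terms for genotype and sex, the log2 training change of Kdr was -1.03 (SE 0.29, 95% interval -1.66 to -0.40), a ratio of 0.490 of trained to untrained (limma, unadjusted p = 0.00417, adjusted p = 0.228). Both untrained mice are female and sex is a term, so this estimate equals that of the 6 females alone, and without the sex term it was -0.70 (adjusted p = 0.59 by limma). The change passed the limma threshold in 3 other fits: -1.26 without the 3 arrays of high GAPDH ratio (adjusted p = 0.0108, where 1.66% of all probe sets passed), -1.26 with the log2 GAPDH ratio as a covariate (adjusted p = 0.0235, where 0.611% passed) and -1.26 without trained wildtype replicate 2 (adjusted p = 0.0497, where 0.53% passed). All 3 fits leave out or adjust for trained wildtype replicate 2, so they are not independent of each other. That mouse is the only female among the 3 arrays and had the highest Kdr signal of the trained females. Without the untrained plakoglobin (+/-) mouse the training change was -0.76 and without the untrained wildtype mouse -1.30, so its size depended on each untrained animal. Over all 19 alternatives the adjusted p ranged from 0.0108 to 1 and the direction stayed the same.

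Markers of other cell types were read in the same mice. The summed signal of the 7 leukocyte markers was 30542 and 25175 in the untrained mice against a median of 22578 in the trained mice (15886 to 31679). Of these markers, 5 of 6 tested had a fitted training change below 0, and Itgam was at the floor on 4 arrays. Ptprc, the leukocyte surface phosphatase, read 1939.7 and 1318.7 untrained and 703.28 ± 231.19 trained (SD, n = 8). The 4 lung epithelium markers summed to 4070.9 and 3965.5 in the untrained mice and to a median of 2861.6 in the trained mice (2298.2 to 4341.6). Among them Sftpb read 1986.7 and 1853.2 untrained and 1091.9 ± 133.35 trained (SD, n = 8). All trained mice were below both untrained for Sftpb, as in 4.61% of all tested probe sets. Sftpc, a surfactant protein made by the lung, ranged from 251.5 to 1473.2 over the 10 arrays, and its groups overlapped. Scgb1a1, the club cell protein, was at the floor on 2 arrays. The part of these leukocyte and lung markers in the Kdr result was not tested.

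Kdr was also the gene of the 10 with the largest excess in males. Trained males averaged 4273 ± 908.95 and trained females 2707 ± 685.18 (SD, n = 4 each), with the highest female (3718.5) above the lowest male (3213.4). The log2 difference, male minus female, was 0.66 (SE 0.24; limma, unadjusted p = 0.0190, adjusted p = 0.509). Its genotype difference was 0.11 (SE 0.24), smaller than its error.

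Flt1 was read by 3 probe sets, which gave 3 different accounts. The brightest, 1451756_at, read 3910.5 in the untrained wildtype and 3961 in the untrained plakoglobin (+/-) mouse. Trained plakoglobin (+/-) mice read 5801.7, 7165.3, 6258.7 and 6547.3, and trained wildtype mice 6284.2, 2874.9, 4752 and 4494. Of the 8 trained mice, 7 exceeded both untrained ones, and the exception was trained wildtype replicate 2, the array with the GAPDH ratio of 17.8. The fitted training change of 0.29 (SE 0.27, limma adjusted p = 0.865) was about the size of its error. It was 0.54 without the untrained wildtype mouse and 0.027 without the untrained plakoglobin (+/-) one.

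By the same probe set, 2 of the 4 trained plakoglobin (+/-) mice were above every trained wildtype mouse, and the other two lay below 1 of them, wildtype replicate 1. The genotype difference was 0.54 on the log2 scale (SE 0.22, 95% interval 0.04 to 1.03; limma, unadjusted p = 0.0363, adjusted p = 1). It was 0.55 (SE 0.17) without the 3 arrays of high GAPDH ratio, but 0.38 (SE 0.20) with the GAPDH covariate and 0.35 (SE 0.20) without trained wildtype replicate 2 alone. Over 17 alternatives it stayed above 0, with adjusted p from 0.709 to 1. The other 2 probe sets gave 0.10 (SE 0.23) for 1419300_at and 0.41 (SE 0.33) for 1454037_a_at, the latter 0.15 with the GAPDH covariate.

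Probe set 1419300_at separated the sexes instead. Its signal in trained males was 2045.2, 1992.2, 3513.4 and 3143.9, and in trained females 4663.6, 4692.5, 4360 and 3860.5. All 4 males were below all 4 females, as in 2.91% of all tested probe sets (5.89% in either direction), and this was the 1 probe set of the 15 in which the sexes did not overlap. The log2 difference, male minus female, was -0.76 (SE 0.23; limma, unadjusted p = 0.00882, adjusted p = 0.505). The 2 lowest males are the 2 males with a high GAPDH ratio; without the 3 such arrays the difference was -0.34 (SE 0.19). The third probe set, 1454037_a_at, ranged from 816.6 to 1829.2 and its 3 lowest values were those of the same 3 arrays.

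Vegfa, the ligand, passed the test in neither comparison. Probe set 1420909_at read 5258.6 and 5220.7 in the untrained wildtype and plakoglobin (+/-) mice. The trained wildtype values were 5630.1, 9578.7, 4819 and 6500.3, and the trained plakoglobin (+/-) values 5884.2, 7247.8, 6078.7 and 4262.5. The untrained pair lay in the lower part of the trained range, with 6 trained mice above both. Its training change was 0.27 (SE 0.29, limma adjusted p = 0.890) and the genotype difference -0.15 (SE 0.25, adjusted p = 1). Its highest value, 9578.7, came from trained wildtype replicate 2, and without that mouse the training change was 0.07.

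The other Vegfa probe set, 1451959_a_at, ranged from 1841.7 to 6615.3. Its 3 lowest signals, 1841.7, 2128.7 and 1898.2, were those of the 3 arrays of high GAPDH ratio, and the next was 3086.8. Its training change was -0.41 (SE 0.49), against 0.27 by the first probe set, and both intervals covered 0. The genotype difference by 1451959_a_at was -0.14 (SE 0.43). It was -0.57 (SE 0.20; limma, unadjusted p = 0.016, adjusted p = 0.709) without the 3 arrays and -0.57 (SE 0.28) with the GAPDH covariate. By 1420909_at the same fits gave 0.051 and 0.017.

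Neither receptor of the angiopoietin system passed. Tek read 2938.8 and 3641 in the untrained wildtype and plakoglobin (+/-) mice, 3382.9, 3751.5, 3229.4 and 2428.8 in trained wildtype mice and 2620.8, 4032.4, 3703.4 and 3025.9 in trained plakoglobin (+/-) mice. The 4 groups overlapped, and its training change of -0.04 had a 95% interval of -0.61 to 0.53. Its genotype difference was 0.06 (SE 0.22).

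Tie1 read 1460.7 in the untrained wildtype and 2464.8 in the untrained plakoglobin (+/-) mouse, the highest of all 10. The trained wildtype mice read 1084.6, 895.6, 1626.2 and 1749.7, and the trained plakoglobin (+/-) mice 972.1, 2018.2, 1625.2 and 2022.7. The 3 lowest, 895.6, 972.1 and 1084.6, are those of the 3 arrays of high GAPDH ratio, and every other trained mouse lay between the 2 untrained ones. Its fitted training change was -0.33 (SE 0.39, limma adjusted p = 0.896), and -0.14 (SE 0.27) without those arrays. With 1 mouse left out it ran from -0.56, when the untrained wildtype mouse was omitted, to -0.11, when the untrained plakoglobin (+/-) mouse was.

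Pecam1, the first of the junction genes, is an adhesion receptor at endothelial borders. The untrained wildtype and plakoglobin (+/-) mice read 4161 and 3820.5. Trained wildtype mice read 1613.7, 2428.3, 3547.4 and 3637.4, and trained plakoglobin (+/-) mice 718.6, 3563.9, 3370.4 and 4288. The 3 lowest, from 718.6 to 2428.3, were again the arrays of high GAPDH ratio, and the other 5 trained mice lay between 3370.4 and 4288. For training the change was -0.25 (SE 0.55, limma adjusted p = 0.958) with all mice and -0.09 (SE 0.20) without those 3.

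Cdh5, the adherens junction cadherin of endothelium, gave opposite pictures by its 2 probe sets. Probe set 1433956_at read 3800 and 4258.5 in the untrained wildtype and plakoglobin (+/-) mice. It read 4700.5, 6795.8, 4208 and 4160.5 in trained wildtype and 5564.7, 4155.9, 3076.3 and 2564.8 in trained plakoglobin (+/-) mice. Here the 3 arrays of high GAPDH ratio were the 3 highest. By this probe set the training change was -0.06 (SE 0.32) and the genotype difference -0.40 (SE 0.27, limma adjusted p = 1). Without trained wildtype replicate 2 that difference was -0.16, and with the GAPDH covariate it was -0.16.

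The other Cdh5 probe set, 1422047_at, was below the brightness filter and was not tested. On the 3 arrays of high GAPDH ratio it read 75.5, 251 and 289, and on the other 7 it read 638.1 to 1504.7. The log2 difference between the 2 Cdh5 probe sets was 4.47 to 5.50 on those 3 arrays and 0.93 to 2.70 on the others, with no overlap.

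Esam, an immunoglobulin-like molecule of tight junctions, was narrow in range. It read 6366.8 and 6118.3 in the untrained wildtype and plakoglobin (+/-) mice, 7981.9, 5941.2, 5683.1 and 5649.2 in trained wildtype and 8569, 6569.2, 6241.7 and 5754.7 in trained plakoglobin (+/-) mice. The 2 highest were the 2 males of high GAPDH ratio, and the remaining 8 lay between 5649.2 and 6569.2. The training change was -0.08 (SE 0.21, 95% interval -0.54 to 0.37).

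Vwf read 4123 and 3733.5 in the untrained wildtype and plakoglobin (+/-) mice. Trained wildtype mice read 5097.1, 4752.1, 3396.9 and 5617.2, and trained plakoglobin (+/-) mice 4824.1, 5014.5, 3188.3 and 6570.8. Of the 8 trained mice, 6 were above both untrained ones and 2 below both. Its change with training was 0.31 (SE 0.30, limma adjusted p = 0.871) and the genotype difference 0.03 (SE 0.26). Without trained plakoglobin (+/-) replicate 4 the former was 0.14 and without replicate 3 of that group 0.54. On the 3 arrays of high GAPDH ratio Vwf read 4752.1 to 5097.1, inside the range of the others.

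Eng, by probe set 1417271_a_at, read 8961.1 and 9529.7 in the untrained wildtype and plakoglobin (+/-) mice. The trained wildtype values were 5527.1, 3764.5, 8423.5 and 9033.1, and the trained plakoglobin (+/-) values 5629.7, 9065, 7567.8 and 7870. The 3 lowest, 3764.5, 5527.1 and 5629.7, were the arrays of high GAPDH ratio, and the other 5 trained mice lay between 7567.8 and 9065. Eng's training change was -0.46 (SE 0.34, limma adjusted p = 0.809), and -0.18 (SE 0.17) without those arrays.

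The second Eng probe set, 1432176_a_at, was the steadiest of the 15, at 2734.3 to 3495.9. Its training change was 0.08 (SE 0.20) and its genotype difference 0.02 (SE 0.17). Its 3 highest values came from the arrays of high GAPDH ratio, opposite to the first Eng probe set.

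**Figure D2:**
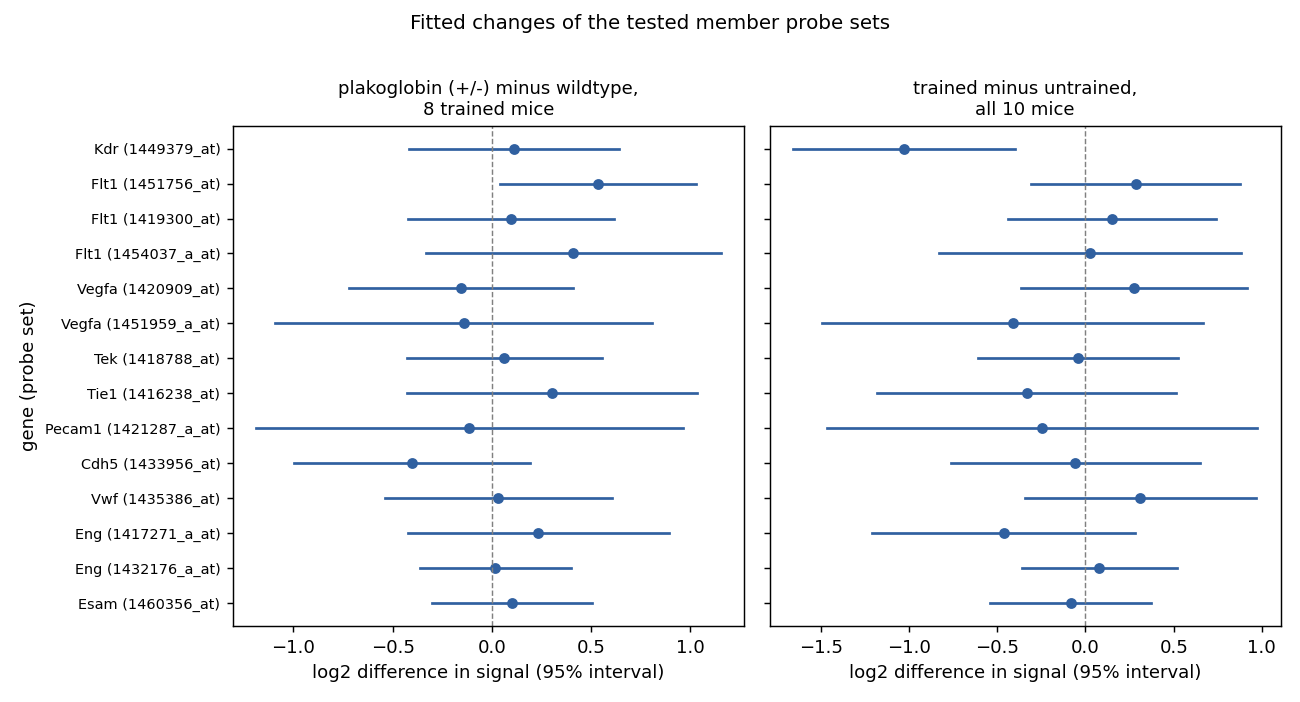
Fitted log2 difference (point) with its 95% interval (line) for the 14 tested probe sets, plakoglobin (+/-) minus wildtype in the 8 trained mice at left and trained minus untrained in all 10 mice at right. Intervals cover 0 except for Flt1 probe set 1451756_at at left (0.04 to 1.03) and Kdr at right (-1.66 to -0.40), and neither passed after adjustment.

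Set out over all 15 probe sets, 6 were lower on each of the 3 arrays of high GAPDH ratio than on every other array, 2 were higher on each and 7 overlapped. Among the 14 tested, 5 were lower and 2 higher, against 5.89% and 4.26% of all tested probe sets. The lower ones were of Flt1, Vegfa, Tie1, Pecam1 and Eng, plus the untested one of Cdh5, and the higher ones were of Cdh5 and Eng. All 3 arrays are of trained mice, so they enter only the trained side of the training comparison.

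Probe sets of a gene did not follow each other in most cases. Over the 10 mice the Pearson correlation of log2 signals was -0.69 for the Cdh5 pair, -0.55 for Eng and -0.47 for Vegfa. For Flt1 it was -0.37 between 1451756_at and 1419300_at, 0.40 between 1451756_at and 1454037_a_at and 0.48 for the remaining pair. Over the 7 arrays of low GAPDH ratio the same values were -0.55, -0.16 and -0.21, and 0.21, 0.72 and 0.05 for Flt1. For all 2794 genes with 2 or more tested probe sets, the brightest and the next brightest were correlated over the 10 mice. The median was 0.14, and 39.0% were below 0. The Cdh5 pair includes a probe set below the filter, a kind which that comparison leaves out.

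**Figure D3:**
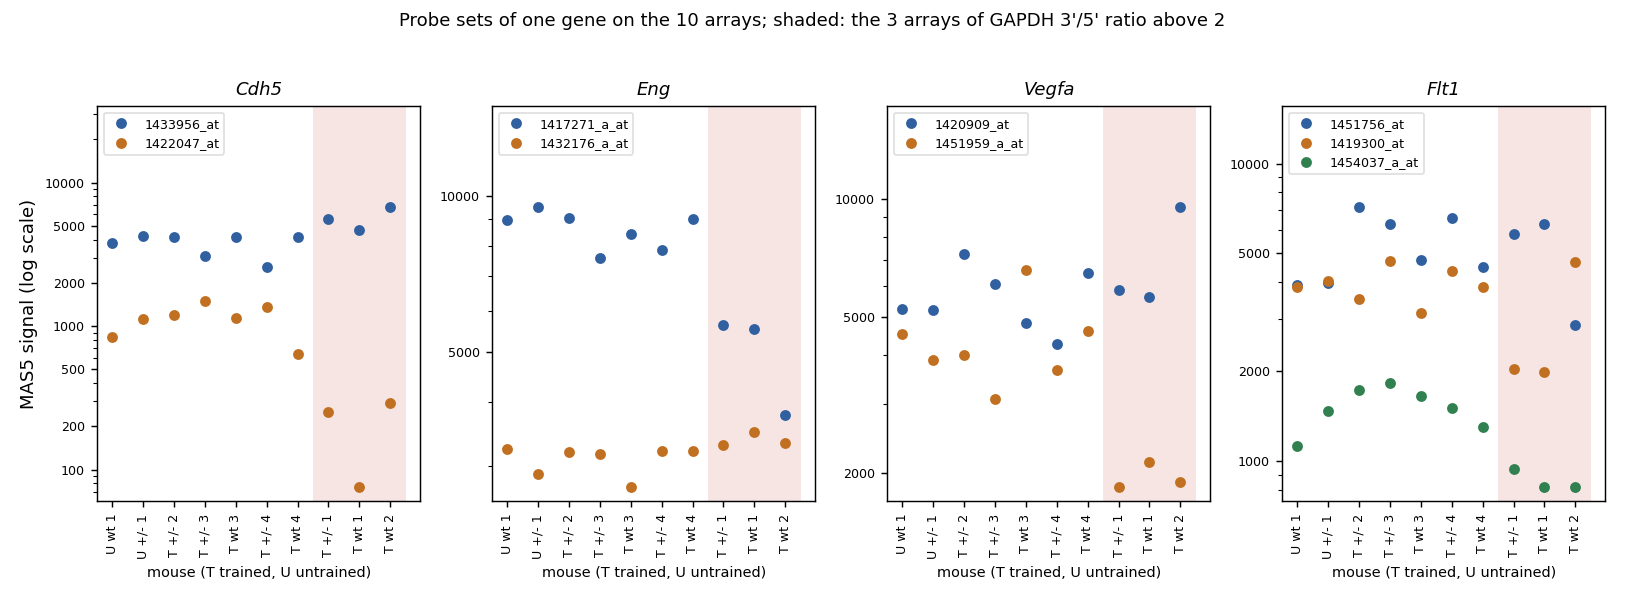
MAS5 signal (log axis) of every probe set of Cdh5, Eng, Vegfa and Flt1 in each mouse (T trained, U untrained, then genotype and replicate), with the 3 arrays of GAPDH ratio above 2 shaded at right. In the shaded arrays 1 probe set of Cdh5 falls to 75.5 to 289 while the other is at its highest, and 1 probe set each of Eng, Vegfa and Flt1 is at its lowest. Heights of different probe sets are not comparable.

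Across mice the 10 genes showed no common course. Of the 45 pairs of genes, 21 had a Pearson correlation of log2 signals above 0 over the 10 mice, with a median of -0.06, and over the 7 arrays of low GAPDH ratio 30 were above 0, with a median of 0.12. Tie1 and Eng had the highest value, 0.88 over 10 mice and 0.37 over the 7 arrays. Pecam1 went from 0.74 to 0.12 with Tie1 and from 0.62 to 0.11 with Eng. Pecam1 and Esam had the lowest, -0.87 and -0.10, and Cdh5 and Eng went from -0.66 to 0.82. The points of each pair share the same arrays, no test was made on them, and pairs of other genes were not read for comparison.

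The gene most like Kdr was Aplnr (by its brighter probe set, 1438651_a_at), the receptor of the peptide apelin, found on endothelium. Among 8355 tested genes outside the 10, its Pearson correlation of log2 signal with Kdr was the highest, 0.963 over the 10 mice (Spearman 0.964). It was 0.966 over the 7 arrays of low GAPDH ratio, 0.972 over the 8 trained mice and 0.964 without the 2 mice farthest from the median of Kdr. Next were Sdc2, a cell surface heparan sulphate proteoglycan, at 0.901 (0.789 without those 2 mice) and Tm4sf1, a membrane protein abundant on endothelium, at 0.899 (0.904 without them). These are the top of a search over many genes on 10 arrays and are given as a description.

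Aplnr read 3937 and 5660.2 in the untrained wildtype and plakoglobin (+/-) mice. The trained females read 2862.4 and 1051.1 (wildtype) and 1306.6 and 1327.7 (plakoglobin (+/-)), and the trained males 2872.8 and 2812.8 (wildtype) and 6194.2 and 3387.9 (plakoglobin (+/-)). As for Kdr, both untrained females were above all 4 trained females. Unlike for Kdr, 1 trained male, plakoglobin (+/-) replicate 1, was above both. The training change was -1.64 (SE 0.42, limma adjusted p = 0.173). It passed the limma threshold in the 3 fits in which Kdr passed. It was -2.01 without the 3 arrays (adjusted p = 0.000694, where 1.66% of all probe sets passed) and -2.04 with the GAPDH covariate (adjusted p = 0.00291, where 0.611% passed). Without trained wildtype replicate 2 it was -2.04 (adjusted p = 0.013, where 0.53% passed). Aplnr is described here because it followed Kdr most closely in these same mice, so its passing with Kdr is no separate evidence. All 3 fits again leave out or adjust for trained wildtype replicate 2, the highest trained female for Aplnr too. Over the alternatives for Aplnr the adjusted p ranged from 0.000694 to 0.967. A dimmer Aplnr probe set, 1423037_at, read 2970.4 and 1448.7 in the untrained mice and 607.6 to 1675.2 in the trained ones. By this probe set the untrained plakoglobin (+/-) mouse was below the untrained wildtype mouse, the opposite order to that of Kdr.

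**Figure D4:**
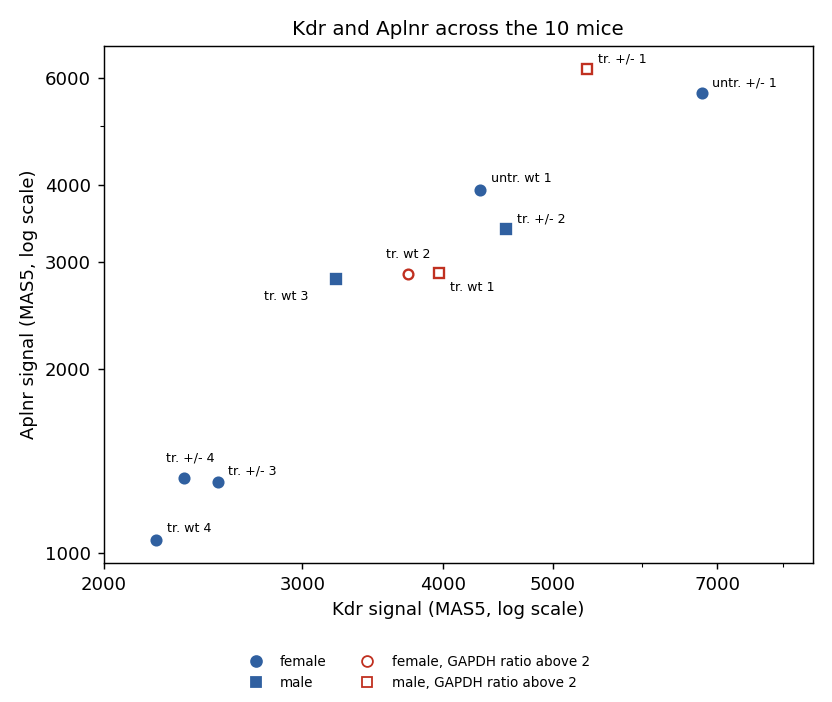
Signal of Kdr (horizontal) against Aplnr (vertical), both MAS5 signals on log axes, 1 point per mouse (tr. trained, untr. untrained, then genotype and replicate; squares males, circles females, open red symbols the 3 arrays of GAPDH ratio above 2). The 10 points lie along 1 line (Pearson r 0.963 on log2 signals), from trained wildtype replicate 4 at the lower left to the untrained plakoglobin (+/-) mouse at the upper right.

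The same search was made for Cdh5 and Vegfa. For Cdh5 (1433956_at) the genes most like it were Phlpp1 at 0.928, Oga at 0.925 and Tmem250-ps at 0.924, and for Vegfa (1420909_at) Exoc8 at 0.936, Basp1 at 0.928 and Rab4a at 0.876. Without the 2 mice farthest from the median, 1 of which was trained wildtype replicate 2 in both cases, these fell to between 0.489 (Rab4a) and 0.857 (Tmem250-ps).

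The wider pathways were read from lists of related genes, and no gene of any list passed the limma threshold for training or for genotype. Of the other VEGF ligands and receptors, 5 of 7 were tested; 0 had a training change above 0 and 5 below, with a median of -0.26. Vegfd, a ligand of the lymphatic receptor Flt4, read 1936.7 and 1659.7 untrained and 1190.7 ± 248.19 trained (SD, n = 8), with all trained mice below both untrained, as in 4.61% of all tested probe sets (change -0.76, SE 0.31, limma adjusted p = 0.489). Nrp2, a co-receptor, was at -0.29 (SE 0.23) and Vegfb, a ligand of Flt1, at -0.26 (SE 0.27), neither beyond the spread. In the genotype comparison the 5 differences were above 0, with a median of 0.05.

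The angiopoietin list had 3 of 4 genes tested, 1 above 0 and 2 below, with a median training change of -0.05. Angpt2, the ligand that loosens vessels, read 307.5 and 543.1 untrained and 894.98 ± 351.95 trained (SD, n = 8; change 0.88, SE 0.60, limma adjusted p = 0.789). It was 0.24 without the untrained wildtype and 1.53 without the untrained plakoglobin (+/-) mouse. Ptprb, the phosphatase that restrains Tek, read 6309.3 and 4111.5 untrained and 4740.2 ± 552.53 trained (change -0.15, SE 0.20).

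Downstream of the VEGF receptors, 18 of the 25 listed genes were tested, 6 with a training change above 0 and 12 below, with a median of -0.13. Pik3r1, a regulatory subunit of PI3 kinase, had the largest at 0.98 (SE 0.78, limma adjusted p = 0.832). Without the 3 arrays of high GAPDH ratio it passed, at 1.14 (adjusted p = 0.0457, where 1.66% of all probe sets passed), and without the sex term it was 0.22. Sphk1, which makes sphingosine-1-phosphate, was at 0.58 (SE 0.41).

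Other endothelial markers and transcription factors had 24 of 30 genes tested, 10 above 0 and 14 below, with a median training change of -0.14. Their summed signal was 113920 and 106470 in the untrained wildtype and plakoglobin (+/-) mice and 110330 to 147530 in the trained mice, with a median of 123580. The brightest of the list, Aqp1 and Cav1, weighed most in that sum. Aqp1 read 20473.9 and 19832.5 untrained and 26204 on average trained, and Cav1 18989.3 and 17787.7 untrained and 23794 trained. The largest changes were of Tal1, an endothelial and blood transcription factor, at 1.17 (SE 0.74), and Clec14a, an endothelial lectin, at 0.63 (SE 0.35, limma adjusted p = 0.698). Tal1 read 940.6 in the untrained wildtype and 145.5 in the untrained plakoglobin (+/-) mouse, and without the latter its change was -0.29.

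The Notch and tip cell list had 8 of 11 genes tested, 3 above 0 and 5 below (median -0.33); beside Aplnr its largest change was that of Hey1, a Notch target, at 0.85 (SE 0.69), which ran from 0.26 to 1.45 with 1 mouse left out. In the endoglin and BMP list, 2 of 9 tested genes were above 0 and 7 below (median -0.08). Smad6, an inhibitor of BMP signalling, read 2234.3 and 1922.7 untrained and 1376.4 ± 308.63 trained (SD, n = 8), again with no overlap (-0.69, SE 0.31, limma adjusted p = 0.582), and Smad7 had 0.47 (SE 0.33). Of the activated endothelium genes, 2 of 4 tested were above 0 and 2 below (median -0.11); Icam1, a leukocyte adhesion molecule, had -0.54 (SE 0.28) and Vcam1 -0.32 (SE 0.31). Of the regulators and companions of Vegfa in hypoxia, 4 of 15 were above 0 and 11 below (median -0.07), with Epas1 (HIF-2 alpha) at -0.95 (SE 0.77) and Pdk1 at -0.43 (SE 0.30).

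Markers of the cells around the vessels gave medians below 0 for training in mural cells (4 of 10 above 0, median -0.14), lymphatic endothelium (1 of 3, -0.24), fibroblasts (1 of 6, -0.47) and ventricular myocytes (1 of 7, -0.13). In platelets 2 of 3 were above 0, with a median of 0.11. The largest values among them were Tagln (-1.31, SE 0.63) and Acta2 (0.32, SE 0.36) of smooth muscle, Prox1 (-0.76, SE 0.46) and Pdpn (-0.24, SE 0.27) of lymphatics, and Gp1bb (0.81, SE 0.29) and Pf4 (-0.69, SE 0.35) of platelets. In fibroblasts they were Postn (-1.35, SE 0.38) and Col3a1 (-1.05, SE 0.31), and in myocytes Ryr2 (0.54, SE 0.24) and Myl2 (-0.38, SE 0.15). When the 3 arrays of high GAPDH ratio were left out, Col3a1 passed, at -1.30 (limma adjusted p = 0.00108, where 1.66% of all probe sets passed), and without the sex term it was -0.36. Of the leukocyte markers, 1 of 6 was above 0 (median -0.76), with C1qa at -1.25 (SE 0.60) beside Ptprc at -1.30 (SE 0.48). Both tested lung epithelium markers were below 0, Sftpc at -0.78 (SE 0.50) and Sftpb at -0.73 (SE 0.27).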

How the data were processed

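Right ventricular RNA of 10 mice was measured on Affymetrix expression arrays. The authors deposited linear intensity values for 22690 probe sets, computed with MAS5 5.0 per the submitters' processing notes. The mean left after trimming the lowest and highest 2% lay between 2501.3 and 2501.6 on every array, so they had been scaled alike. Probe positions and detection calls were not used here, and the number of arrays limits the precision.

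Signals were raised to a floor of 104 (10th percentile) and log2 transformed. After leaving out 64 controls, 13576 probe sets with a mean at or above the 40th percentile (a signal of about 661) were tested with limma 3.58.1 in R 4.3.3 (lmFit, eBayes with trend, two-sided, Benjamini-Hochberg over all probe sets, threshold 0.05). Genotype and sex were fitted together in the 8 trained mice, and training in all 10 with genotype and sex, to which a last fit added their interaction. The genotype and training fits were run on simulated data with independent noise, checking only that a planted change was recovered. Effects of array quality and sex were not simulated. Symbols are those of the platform annotation (20393 probe sets with 1 symbol, 691 with several, 1606 not listed), and a gene is represented by its brightest probe set.

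The 10 genes and all lists were chosen with earlier results of these data known. Named were all probe sets of the 10 genes and the 3 genes most correlated with each of Kdr, Cdh5 and Vegfa. Also named were the genes of each list with the largest training change among those tested. These were 3 for the VEGF ligands and receptors and fewer for each other list. Jup, Aqp1, Cav1, Itgam, Scgb1a1, Mcam, Pgf and Esm1 were named outside these rules. Listed genes dimmer than the filter carry no change. Promoter windows are from RefSeq.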

Additional observations from a re-analysis of the deposited data

Results flagged for a closer look

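Among the trained mice, 30 groups of 4 values (15 probe sets by 2 genotypes) were examined for a mouse far from the other 3 by Dixon's test, and 3 stood out; chance alone gives about 1 in 20 groups. Pecam1 in trained plakoglobin (+/-) replicate 1 was the lowest of its group at 718.6, with the next at 3370.4. The dimmer Cdh5 probe set (1422047_at) in the same mouse was the lowest at 251, with the next at 1188.1. Esam in trained wildtype replicate 1 was the highest of its group at 7981.9, with the next at 5941.2. Both mice are males with a GAPDH ratio above 2 (2.98 and 2.50), whose part in these values was not tested.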

How the results depend on the processing

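No paired analysis was possible because the labels do not tie mice to litters and the replicate numbers only name them. Genotype calls were 0 in each of 17 alternatives. Training calls, 85, became 225 without the 3 arrays of high GAPDH ratio and ran from 10 to 87 with 1 mouse left out, lowest without the untrained plakoglobin (+/-) mouse. Sex calls, 7, became 13 with quantile normalization, 15 with a floor at the 25th percentile, 2 with no filter, 1 without a trend, 17 without the 3 arrays and 16 with the GAPDH covariate, and ran from 1 to 12 with 1 mouse left out. Interaction calls, 0, became 1 with quantile normalization, 66 with no filter and 1 without the 3 arrays, and ran from 0 to 1 with 1 mouse left out; that fit could not be estimated without either untrained mouse. The floor and filter of all 10 arrays were kept in these fits. The causes were not tested.

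Genotype differences of the 10 genes turned sign somewhere for 10 of 14 probe sets (27 of 238 values), none of them called. Without the 3 arrays they were 0.051 for Vegfa (1420909_at), 0.039 for Pecam1 and -0.084 for Eng (1417271_a_at); with the covariate 0.017 for that Vegfa and -0.073 for that Eng probe set; over all 10 mice -0.002 for Vwf and -0.017 for Eng (1432176_a_at). With 1 mouse left out they ran from -0.017 to 0.33 for Kdr, -0.061 to 0.25 for Flt1 (1419300_at), -0.31 to 0.055 and -0.46 to 0.25 for the Vegfa probe sets, -0.08 to 0.20 for Tek, -0.48 to 0.44 for Pecam1, -0.13 to 0.28 for Vwf, -0.051 to 0.45 and -0.063 to 0.079 for the Eng probe sets and -0.006 to 0.19 for Esam.

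Training changes turned sign for 8 of 14 probe sets (15 of 266 values). Without the sex term they were -0.23 for Flt1 1419300_at, -0.026 for Flt1 1454037_a_at, 0.072 for Cdh5 and 0.052 for Esam; with the covariate 0.023 for Vegfa 1451959_a_at and 0.15 for Pecam1. With 1 mouse left out they ran from -0.082 to 0.21 for Flt1 1454037_a_at, -0.17 to 0.086 for Tek, -0.34 to 0.23 for Cdh5 and -0.011 to 0.17 for Eng 1432176_a_at, and for list genes from -0.35 to 0.057 for Ptprb, -0.29 to 2.63 for Tal1, -0.12 to 1.07 for Smad7 and -0.62 to 0.14 for Pdpn. The other 27 of 31 list genes kept their sign. Sign changes included, a value moved by over 1.5 times in at least 1 alternative for 14 of 14 genotype differences and 13 of 14 training changes of the 10 genes, and for 24 of 31 list genes.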

Other observations

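Mcam, a junction molecule of endothelium and mural cells, was below the brightness filter and carries no test in the report; it was singled out after its values were seen. It read 1051.6 in the untrained wildtype and 1310.7 in the untrained plakoglobin (+/-) mouse, and 179.39 ± 165.16 in the trained mice (SD, n = 8). All trained mice were below both untrained, as in 4.61% of all tested probe sets. With no filter its training change was -3.12 (SE 0.70, limma adjusted p = 0.197). Mcam was at the floor on 2 arrays, so the size of this change depends on the floor. Pgf, a ligand of Flt1 that was also below the filter, read 223 and 186 in the untrained mice and 938.72 ± 536.32 in the trained mice (SD, n = 8), and the groups overlapped. Esm1, a tip cell gene, was at the floor on all 10 arrays.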
